A study of Mus musculus with 703 samples.

Results

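The IGF1 axis and STAT5 feedback genes are 9 genes of growth hormone and insulin-like growth factor signalling: Igf1, Ghr, Igf1r, Igfbp3, Igfbp4, Igfbp5, Socs2, Socs3 and Cish. They were chosen by symbol, and each had 1 row among the 19088 genes of the count table. Growth hormone binds its receptor GHR at the cell surface, the kinase JAK2 bound to that receptor phosphorylates STAT5, and STAT5 enters the nucleus and drives transcription of Igf1. IGF1 from liver and from muscle itself acts through the receptor IGF1R and favours muscle growth, while IGF-binding proteins carry IGF1 and set how much of it reaches the receptor. Cish, Socs2 and Socs3 are induced by cytokine signalling and switch it off again. CISH and SOCS2 are classical feedback inhibitors of the STAT5 pathway, and SOCS3 also restrains receptors that signal through STAT3. In rodents, growth hormone is secreted in a different temporal pattern in males and females.

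The tissue was whole gastrocnemius, a mixed but mostly fast-twitch calf muscle, and its RNA was sequenced in bulk with 1 library per mouse, 703 libraries in all. The mice were CC-RIX animals, F1 offspring of 2 Collaborative Cross lines, and the 20 strains used 19 such lines. The labels give every animal's genotype as Outbred, although the animals of 1 strain and sex share their parental lines. Each mouse ate a diet labelled 10% fat + fiber or 44% fat + fiber from 6 weeks of age, and both diets carried the fiber. Of the 703 mice, 469 had no drug. They were 236 females and 233 males, 234 on 10% fat and 235 on 44% fat, with both sexes near evenly split between the diets. The other 234 drank metformin at 5 mg/mL from 7 months of age, as 57 females and 59 males on 10% fat and 59 of each sex on 44% fat. Tissue was taken from cohorts of 6 and 12 months. No label gives an animal's age, so treated mice belong to the older cohort and untreated mice to either, and metformin and age cannot be told apart. Strain, sex and diet were therefore compared among the 469 untreated mice.

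Library totals ran from 27.4 to 96.1 M estimated counts (49.4 ± 7.66 M, SD, n = 703). The identifiers under which libraries were sequenced fell into a lower range of 544 libraries and an upper range of 159. No label gives a sequencing batch, so this range entered every main model in place of a batch term. Markers matched the labelled tissue: all 10 fast-muscle genes were expressed, with a summed level of 109478 to 200765 CPM, the usual count unit scaled to each library's total. By contrast, 5 of 8 liver genes had a median under 0.1 CPM, but 14.5% of libraries had more than 10 times the median summed liver level. A further check found 14 libraries whose Xist level did not match the sex label and 4 that lay closest to another strain. Together 16.4% of libraries had at least 1 of these marks, and the count of members called for each factor was repeated without each kind.

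Growth hormone pathway genes in muscle spanned a wide range of levels. Per kilobase of exon, which allows genes to be compared, Igfbp5, the main IGF-binding protein of muscle, was highest with a mean of 94.9 CPM per kb. Ghr followed with 19.2 CPM per kb and Igfbp4, which binds IGF1 and limits its action, with 7.25. Igfbp3, the main IGF carrier of blood, had 2.75, Cish 2.53, Igf1 1.72, Socs2 1.45, Igf1r 1.35 and Socs3 0.785 CPM per kb. Igfbp5 exceeded Ghr, and Igfbp4 exceeded Igfbp3, in 100% of libraries, and Ghr exceeded Igfbp4 in 99.86%. Igfbp3 exceeded Cish in 68.8% of libraries, Cish exceeded Igf1 in 43.5%, Igf1 exceeded Socs2 in 66.1% and Socs2 exceeded Igf1r in 45.1%, so these neighbours were not separated beyond their spread, while Igf1r exceeded Socs3 in 91.2%.

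The members differed in how variable they were from mouse to mouse. Cish ranged from 0.171 to 130 CPM with a median of 8.59 over the 703 libraries (coefficient of variation 115.5%), and its 95th percentile was 47.7 times its 5th. Socs3 ranged from 0.194 to 60.2 CPM with a median of 1.84 (121%), and Socs2 from 2.03 to 68.7 with a median of 11.8 (62.5%). At the other end, Ghr ranged from 104.9 to 267 CPM with a median of 172 (12.7%), and its 95th percentile was 1.53 times its 5th. The feedback inhibitors thus varied most between animals and the hormone receptor least. Between them lay Igf1 (4.14 to 77.1 CPM, median 15.8, 42.9%), Igfbp5 (126 to 2137, median 557, 35.2%), Igfbp3 (25.5%) and Igf1r (19.6%), with Igfbp4 between the last pair. Cish was under 1 CPM in 26 libraries and Socs3 in 49, and the other 7 genes were above 1 CPM in every library.

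**Figure D1:**
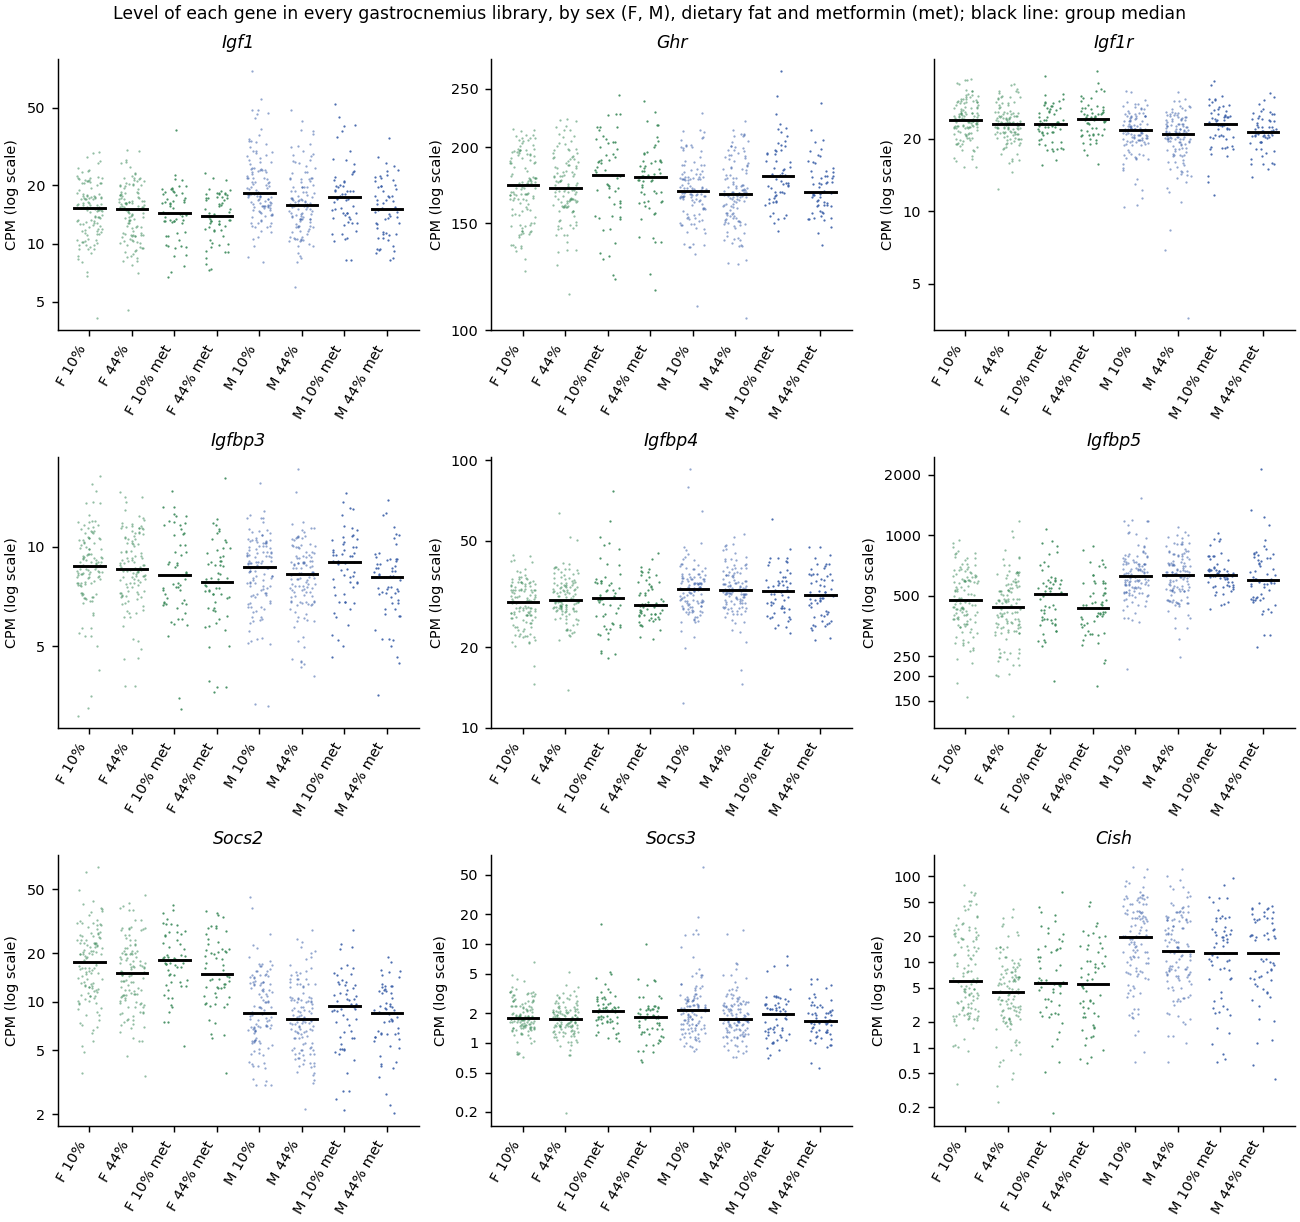
Level of each of the 9 genes in every library, in CPM on a log axis, by sex, diet and treatment. Each point is 1 mouse, green for females and blue for males and darker with metformin, and the bar is the group median. All groups of a gene overlap, with median Cish at 4.46 CPM in untreated females on 44% fat and 19.7 in untreated males on 10% fat.

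Igf1 (ENSMUSG00000020053) lies at chr10:87858265-87937042 on the plus strand of GRCm38 and Ghr (ENSMUSG00000055737) at chr15:3317760-3583492 on the minus strand. Igf1r lies at chr7:67952827-68233668 on the plus strand. The binding proteins lie at chr11:7206086-7213923, minus (Igfbp3), chr11:99041244-99054392, plus (Igfbp4) and chr1:72857932-72874884, minus (Igfbp5). The inhibitors lie at chr10:95385362-95417180, minus (Socs2), chr11:117966079-117970047, minus (Socs3) and chr9:107296026-107302784, plus (Cish). STAT factors bind DNA at palindromes of the form TTCNNNGAA, where N is any base, which read the same on both strands. Among RefSeq promoter windows of GRCm38.p6, from 250 bases before to 50 after a gene's start, 8.30% of 32851 held this motif and 0.457% held it at least 2 times. Windows were available for 8 members, all but Socs2. The Cish window held 2 copies and the Socs3 window 1, while no copy was found in the windows of Igf1, Ghr, Igf1r, Igfbp3, Igfbp4 and Igfbp5. The stretches of Cish and Socs3 that held the copies are shown, and the capitals mark the fixed letters of the motif. The Cish stretch (chr9:107296654-107296683, plus strand) starts 5 bases before the RefSeq start site and lies in exon sequence of the 5′ untranslated region in the GENCODE M21 annotation. The Socs3 stretch (chr11:117969502-117969531, minus strand) starts 165 bases before the RefSeq start site and overlaps no annotated Socs3 exon. It lies inside the gene span given above for Socs3, which starts further upstream than the RefSeq site. A match is a sequence description and not evidence of binding in these muscles.
Cish: cagttTTCctgGAAagTTCttgGAAatctg
Socs3: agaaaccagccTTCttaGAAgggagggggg

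Strain was compared first, to ask how far genetic background set the level of each gene in mice without drug. All 9 genes differed between the 20 strains in a fit of all genes by edgeR's quasi-likelihood test with Benjamini-Hochberg adjustment over 16384 genes, but so did 95.4% of all genes. Ghr depended most on strain. Its strain means ran from 153 ± 12.8 CPM (SD, n = 24) in (CC042/GeniUncJ x CC040/TauUncJ)F1 to 200.3 ± 14.7 (n = 24) in (CC012/GeniUncJ x CC002/UncJ)F1, and strain took 43.3% of its variance (omega squared), against a median of 15.4% and quartiles of 7.82% and 28.8% over all genes. For the other 8 genes the strain share lay between 9.48% (Cish) and 20.3% (Igfbp4). In the upper identifier range alone edgeR called 7 of the 9 for strain, where it called 9149 of 16600 genes. Igf1r (adjusted p = 0.268) and Cish (0.35) were not called there.

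The ligand and the binding proteins depended less on strain than Ghr. Strain took 13.2% of the variance of Igf1, 13.8% of Igfbp3 and 13.1% of Igfbp5, below the all-gene median of 15.4%. For Igfbp4 it took 20.3%, above that median. Mean Igf1 ran from 12.5 ± 4.89 CPM in (CC012/GeniUncJ x CC002/UncJ)F1 to 23.7 ± 11.1 in (CC051/TauUncJ x CC019/TauUncJ)F1 (n = 24 each). Mean Igfbp5 was highest in (CC043/GeniUncJ x CC042/GeniUncJ)F1, at 806 ± 290.5 CPM (n = 25), and lowest in (CC011/UncJ x CC027/GeniUncJ)F1, at 434 ± 128 (n = 24). The highest mean was 1.89 times the lowest for Igf1 and 1.86 times for Igfbp5. Igfbp4 ran from 27.2 to 38.7 CPM, Igfbp3 from 7.12 to 10.8 and Igf1r from 19.04 to 25.5.

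Among the inhibitors, the strain means of Cish and Socs2 lay further apart than those of any ligand, receptor or binding protein, whether by means or by medians. Mean Cish ran from 6.40 ± 9.52 CPM in (CC019/TauUncJ x CC075/UncJ)F1 to 33.4 ± 40.2 in (CC051/TauUncJ x CC060/UncJ)F1 (n = 24 each), a 5.22-fold difference. Mean Socs2 ran from 7.69 ± 4.80 CPM in (CC075/UncJ x CC042/GeniUncJ)F1 to 19.6 ± 11.3 in (CC024/GeniUncJ x CC002/UncJ)F1 (n = 24 each), a 2.54-fold difference. By strain medians the spans were 5.20-fold and 2.75-fold. Mean Socs3 ran from 1.53 ± 0.653 to 6.00 ± 11.99 CPM, a 3.92-fold difference, but by strain medians its span was 1.70-fold, below those of Igf1 (2.00-fold) and Igfbp5 (1.90-fold). In the strain with the highest Socs3 mean, (CC051/TauUncJ x CC060/UncJ)F1, 1 male on 10% fat had 60.2 CPM, and the next highest library of the series had 18.7. The library with 60.2 CPM was among those high in liver transcripts. When strains were ordered by their mean, 0 of 19 neighbouring pairs differed by more than the pooled SD within strains, for any of the 9 genes, which is a description and no test, since ordered means lie close together.

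**Figure D2:**
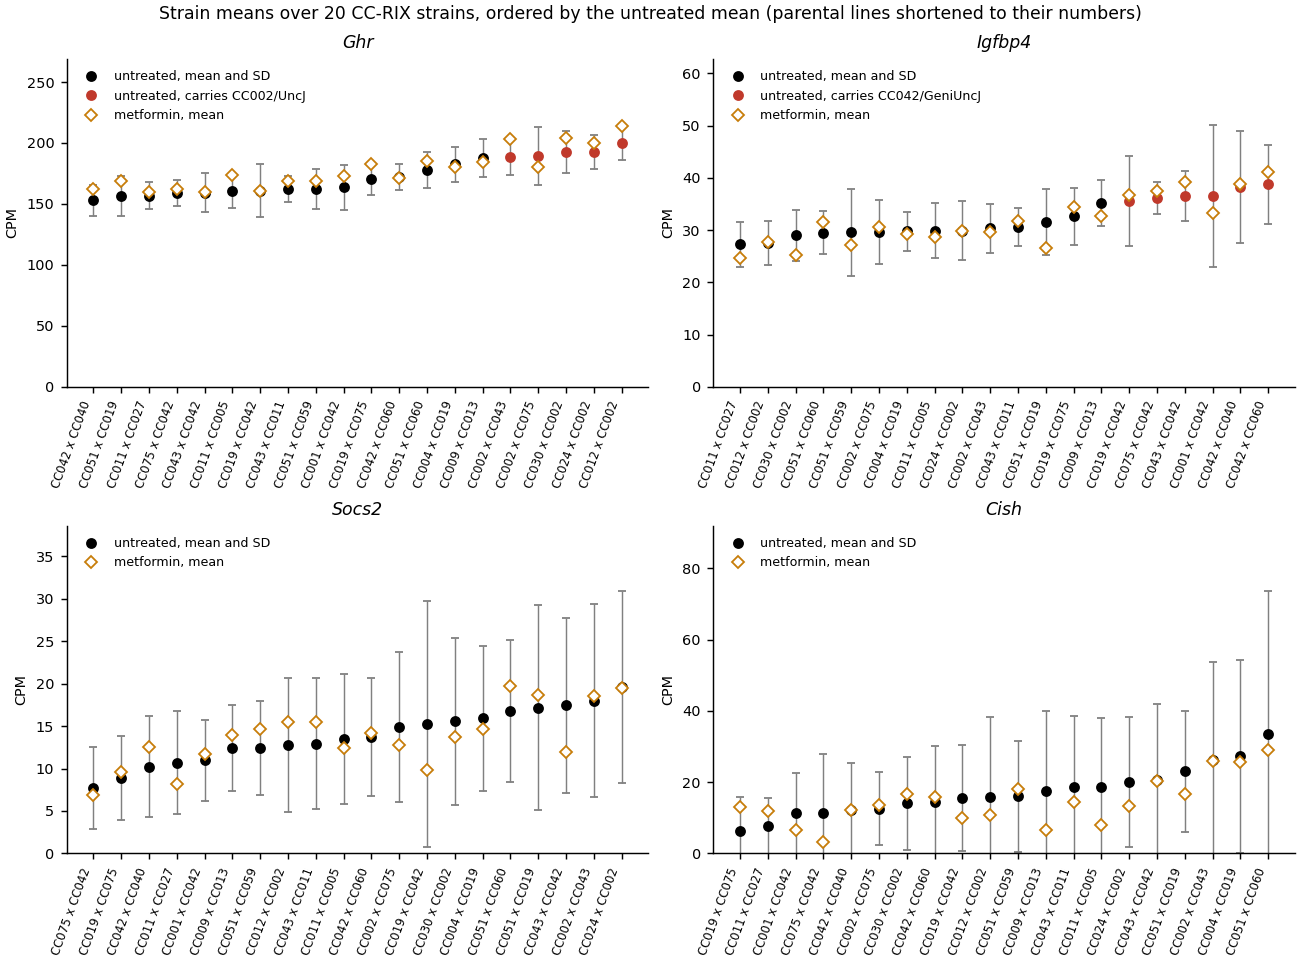
Mean level of Ghr, Igfbp4, Socs2 and Cish in CPM in each of 20 strains, ordered by the untreated mean; circles are untreated means with bars for the SD between mice (cut at 0), red where the strain carries CC002/UncJ (Ghr) or CC042/GeniUncJ (Igfbp4), and open diamonds are metformin means. The red circles sit at the upper end, at 189 to 200.3 CPM for Ghr and 35.5 to 38.7 for Igfbp4, while the Cish bars span most of its range of means, 6.40 to 33.4.

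Since several strains shared a parental line, strain means were also set side by side for the 7 lines that contributed to at least 3 strains. In 3 of 63 line and gene combinations the strains with the line did not overlap those without, where 1.32% of combinations did not over all genes and the same lines. The 5 strains with CC002/UncJ had mean Ghr of 189 to 200.3 CPM (193 ± 4.62), above all 15 others at 153 to 188 (166 ± 10.2), and 1.44% of all genes did not overlap for this line. The 6 strains with CC042/GeniUncJ had mean Igfbp4 of 35.5 to 38.7 CPM (36.95 ± 1.28) and the 14 others 27.2 to 35.2 (30.2 ± 1.99), with 1.18% of all genes separated for this line. The 3 strains with CC075/UncJ were lowest in Socs3, at 1.53 to 1.71 CPM against 1.77 to 6.00, with 1.28% of all genes separated. In the metformin-treated mice of the same strains, which are different animals, Ghr was 180 to 214 CPM (200.3 ± 12.5) with CC002/UncJ and 159 to 185 (171 ± 9.13) without, and 4 of the 15 other strains were above the lowest strain with the line. Igfbp4 was 33.3 to 41.2 CPM with CC042/GeniUncJ and 24.7 to 34.5 without, and 1 other strain overlapped. Socs3 overlapped there, at 1.59 to 2.80 and 1.61 to 3.19 CPM. In treated mice 0 of 63 combinations were separated, beside 1.19% over all genes and lines.

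Strain means were also set side by side between treated and untreated mice. As a description over 20 strains, Pearson's r between the 2 sets of means was 0.91 for Ghr and Igfbp4, 0.84 for Socs2, 0.81 for Cish, 0.78 for Igfbp5, 0.73 for Igfbp3, 0.72 for Igf1, 0.66 for Igf1r and 0.60 for Socs3. The median over 16290 genes was 0.757, with quartiles of 0.569 and 0.881, so Ghr and Igfbp4 lay above the upper quartile and the other members within or near the middle of the genes.

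Sex took more of the variance than strain in Socs2, Igfbp5 and Cish and less in the other 6 genes, and the inhibitors of 1 pathway moved in opposite directions. All 9 genes differed between untreated males and females (edgeR, adjusted p under 0.05), where 67.1% of all genes did. Median Cish was 5.23 CPM in females (0.230 to 80.3, n = 236) and 16.3 in males (0.679 to 130, n = 233). The ranges overlapped, and the fitted level was 2.73-fold higher in males (log2 difference 1.45, SE 0.12, adjusted p = 5.84e-27). Socs2 went the other way, with a median of 16.1 CPM in females (3.44 to 68.7) and 8.30 in males (2.16 to 44.6). Its fitted log2 difference, male minus female, was -0.91 (SE 0.06, adjusted p = 1.36e-38). The male mean was the lower one in 20 of 20 strains for Socs2 and the higher one in 18 of 20 for Cish.

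Socs3 was also higher in males, by 0.39 on the log2 scale (SE 0.07, adjusted p = 4.95e-07). Its median was 1.75 CPM in females (0.194 to 6.56) and 1.92 in males (0.710 to 60.2). Its difference was positive in 13 of 20 strains, with a median over strains of 0.19. With the 60.2 CPM library left out, all 9 genes were still called for sex. The ligand and the chief muscle binding protein were higher in males as well. Median Igfbp5 was 460 CPM in females (126 to 1176) and 631 in males (215 to 1540), a log2 difference of 0.44 (SE 0.04, adjusted p = 1.59e-26) that was positive in 20 of 20 strains. Median Igf1 was 15.2 CPM in females (4.14 to 30.5) and 16.9 in males (5.96 to 77.1), a log2 difference of 0.32 (SE 0.04, adjusted p = 3.33e-11). Igfbp4 was higher in males by 0.15 (SE 0.02, adjusted p = 5.14e-09). The receptors were lower in males: Igf1r by -0.19 on the log2 scale (SE 0.03, adjusted p = 1.13e-12) and Ghr by -0.03 (SE 0.01, adjusted p = 0.024). Igfbp3 differed by -0.07 (SE 0.03, adjusted p = 0.0345). The last 2 calls were the least steady: Ghr was not called without the libraries closest to another strain (adjusted p = 0.0748), nor was Igfbp3 without those high in liver transcripts (0.134).

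Sex took 26.3% of the variance of Socs2, 21.02% of Igfbp5 and 17.02% of Cish, against a median of 1.58% over all genes, and strain took 12.1%, 13.1% and 9.48% of the same genes. For the other 6 members the sex share was 0.522% (Ghr) to 9.28% (Igf1r), below the strain share of each. Within the upper identifier range alone, where 26.1% of all genes were called, 4 of the 9 were, Cish, Igfbp5, Socs2 and Igf1r. In metformin-treated mice, where 53.2% of all genes were called, 6 of the 9 were. Socs2 differed there by -0.97, Cish by 0.96, Igfbp5 by 0.43, Igf1 by 0.26, Igf1r by -0.11 and Igfbp4 by 0.08 on the log2 scale (adjusted p from 1.64e-27 to 0.0276). Socs3 had a difference of -0.15 in treated mice (adjusted p = 0.154).

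Marker lists of other cell and fibre types moved with sex to unequal degrees, where 67.1% of all genes were called. Macrophage genes were called in 0 of 6, smooth muscle genes in 0 of 4, Schwann cell genes in 1 of 4 and liver genes in 2 of 8. Fibroblast genes were called in 5 of 8, endothelial genes in 4 of 6 and satellite cell genes in 4 of 6. Denervation and regeneration genes were called in 6 of 8 and fast-muscle genes in 9 of 10. All 7 slow-muscle genes were lower in males, with a median log2 difference of -0.66, and their summed level was 1171 to 3626 CPM (median 2089) in untreated females on 10% fat, 1307 to 4259 (2153) in females on 44%, 565 to 2203 (1338) in males on 10% and 488 to 2532 (1393) in males on 44%. Of 8 adipocyte genes, 7 were lower and 1 higher in males, with a median of -0.41 and summed medians of 254 and 244 CPM in females and 185 and 204 in males on 10% and 44% fat. Igf1r, which was lower in males, varied with slow-muscle markers after sex was removed (r 0.29, rho 0.20, adjusted permutation p = 4.2e-05, 0.23 without the 2 libraries farthest from the median, 0.29 and 0.32 within the lower and upper ranges). With adipocyte markers its r was negative (r -0.19, rho -0.11, adjusted permutation p = 1.69e-04, -0.11 without 2, -0.16 and -0.48 within the ranges). Its r was larger with endothelial markers (0.39) and STAT3 response genes (0.33). The part of these markers in the sex differences was not tested.

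Other genes of the pathway, from a list of 30 of which 29 were in the table, were tested in the same fit: 25 of 29 were called, where 67.1% of all genes were, 11 higher and 14 lower in males, with a median log2 difference of -0.04 beside -0.02 over all genes. By size of difference, the leading ones were Stc2 (-1.66, adjusted p = 1.30e-104), which inhibits the proteases that release IGF1 from IGFBP4, Socs1 (1.05, adjusted p = 3.13e-15), another cytokine signalling inhibitor, the prolactin receptor Prlr (-0.94, adjusted p = 1.55e-13) and the adaptor Grb10 (-0.56, adjusted p = 6.87e-91), an inhibitor of IGF1R signalling.

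**Figure D3:**
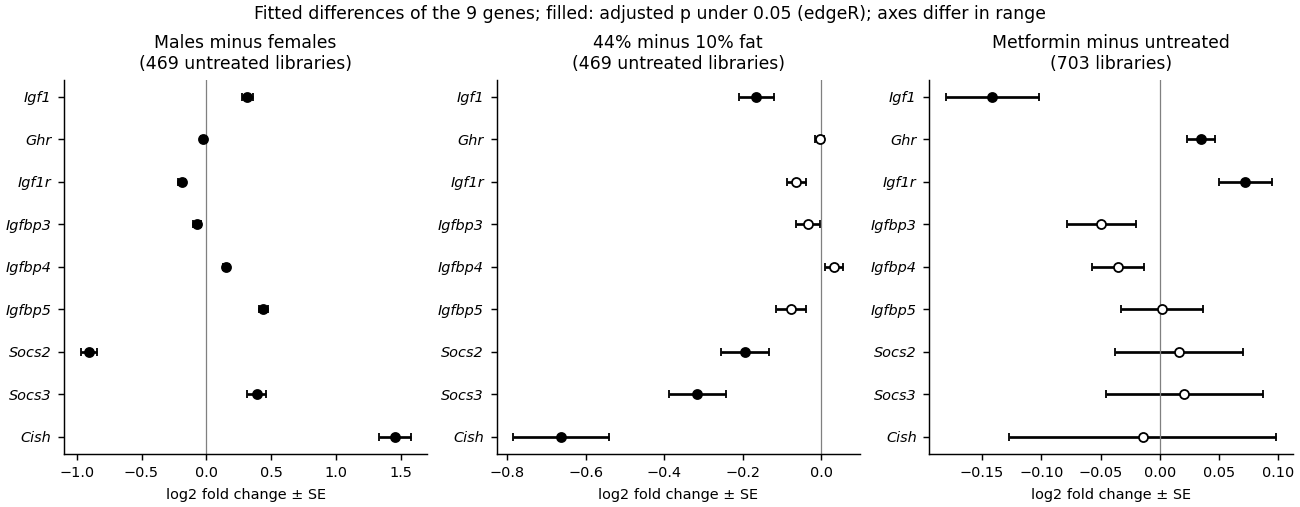
Fitted log2 fold changes with bars of 1 SE for sex, diet and metformin in the 9 genes, from edgeR, in 3 panels whose axes differ in range. Filled points had an adjusted p under 0.05; Cish and Socs2 lie farthest from 0 for sex, on opposite sides, and the metformin differences lie between -0.14 and 0.07.

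Diet was compared to ask whether 44% fat changed the axis in untreated mice. All 3 inhibitors and the ligand were lower on 44% fat, and neither the receptors nor the binding proteins passed the test. Of the 9 genes, 4 were called, all lower (edgeR, adjusted p under 0.05), where 20.3% of all genes were called and 10.1% were called lower. Median Cish was 12.2 CPM on 10% fat (0.377 to 130, n = 234) and 7.21 on 44% fat (0.230 to 124, n = 235). The fitted log2 difference, 44% minus 10%, was -0.66 (SE 0.12, adjusted p = 2.73e-06), a level 36.8% lower with fully overlapping ranges. Median Socs2 was 12.6 CPM (3.04 to 68.7) and 10.5 (2.16 to 46.3), a log2 difference of -0.19 (SE 0.06, adjusted p = 0.0119). Median Socs3 was 1.89 CPM (0.726 to 60.2) and 1.74 (0.194 to 13.7), a log2 difference of -0.32 (SE 0.07, adjusted p = 2.81e-04). Without its highest library the Socs3 difference was -0.24 (adjusted p = 0.00424).

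Igf1 had a median of 16.7 CPM on 10% fat (4.14 to 77.1) and 15.6 on 44% fat (4.56 to 48.6), and the fitted log2 difference was -0.17 (SE 0.04, adjusted p = 0.00261). Fibroblasts, which make much of a muscle's extracellular matrix and also express Igf1, were represented by 8 marker genes, of which 3 were called lower on 44% fat and none higher. Their summed level was 211 to 3955 CPM (median 843) in males on 10% fat, 310 to 2215 (median 723) in males on 44%, 199 to 2281 (median 779) in females on 10% and 242 to 1413 (median 719) in females on 44%. Over all genes 20.3% were called and 10.1% called lower. Of the other lists, adipocyte genes were called in 8 of 8 (6 higher and 2 lower on 44% fat) and endothelial genes in 3 of 6 (all higher). Smooth muscle genes were called in 2 of 4 (both lower), slow-muscle genes in 3 of 7 (all higher) and satellite cell genes in 2 of 6 (both lower). Fast-muscle genes were called in 3 of 10 (1 higher and 2 lower) and denervation and regeneration genes in 1 of 8 (lower). Macrophage, Schwann cell and liver genes were called in 0. Summed adipocyte medians were 254 and 244 CPM in females and 185 and 204 in males on 10% and 44% fat, and endothelial ones 156 and 163 in females and 163 and 166 in males. The part of these cell types in the Igf1 difference was not tested, and in bulk tissue fewer cells of a type cannot be told apart from less RNA per cell. Without the libraries high in liver transcripts the Igf1 difference was -0.16 (adjusted p = 0.00625). The genes that did not pass had differences of -0.06 (Igf1r, adjusted p = 0.0552), -0.08 (Igfbp5, 0.134), 0.03 (Igfbp4, 0.388), -0.03 (Igfbp3, 0.498) and 0.00 (Ghr, 0.831, 95% interval -0.03 to 0.02) on the log2 scale.

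Within each sex the calls were fewer, and they fell on different genes. In females alone, where 10.7% of all genes were called, Cish (-0.89, adjusted p = 6.33e-06) and Socs2 (-0.25, adjusted p = 0.0458) were called, and Igf1 had -0.04 (0.733) and Socs3 -0.14 (0.185). In males alone, where 12.4% were, Igf1 (-0.29, adjusted p = 2.13e-04) and Socs3 (-0.45, adjusted p = 0.00389) were called, and Cish had -0.46 (0.0611) and Socs2 -0.17 (0.187). Median Igf1 was 15.2 and 15.1 CPM in females on 10% and 44% fat, and 18.2 and 15.9 CPM in males. The test of the difference between the sexes, a diet by sex term, passed for 0 of 9 genes by edgeR and 0 by limma voom, where edgeR called 0.568% of all genes. At an unadjusted p under 0.05 it named 4 members, Igf1 (-0.26), Igfbp4 (-0.10), Socs3 (-0.35) and Cish (0.52), where 1530 of 16384 genes were so named. A different diet response in the sexes was therefore not established for these genes.

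The direction of the diet difference was shared by most strains. On 44% fat the strain mean was lower in 18 of 20 strains for Cish, 17 for Igf1, 15 for Socs2 and 13 for Socs3. Strain differences for Cish ran from -1.95 on the log2 scale in (CC051/TauUncJ x CC059/TauUncJ)F1 to 1.81 in (CC009/UncJ x CC013/GeniUncJ)F1. The latter strain was sequenced in the upper identifier range alone and rests on 6 and 4 mice. Socs3 was the member whose diet difference varied between strains by test (edgeR, 19 interaction terms, adjusted p = 0.0315, where 4.13% of all genes were called). The highest of its strain differences was 0.19, in (CC043/GeniUncJ x CC042/GeniUncJ)F1, and the lowest was -0.86, in (CC051/TauUncJ x CC019/TauUncJ)F1. By limma voom this term had an adjusted p of 0.608, and without the highest Socs3 library 2.08e-04 by edgeR.

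**Figure D4:**
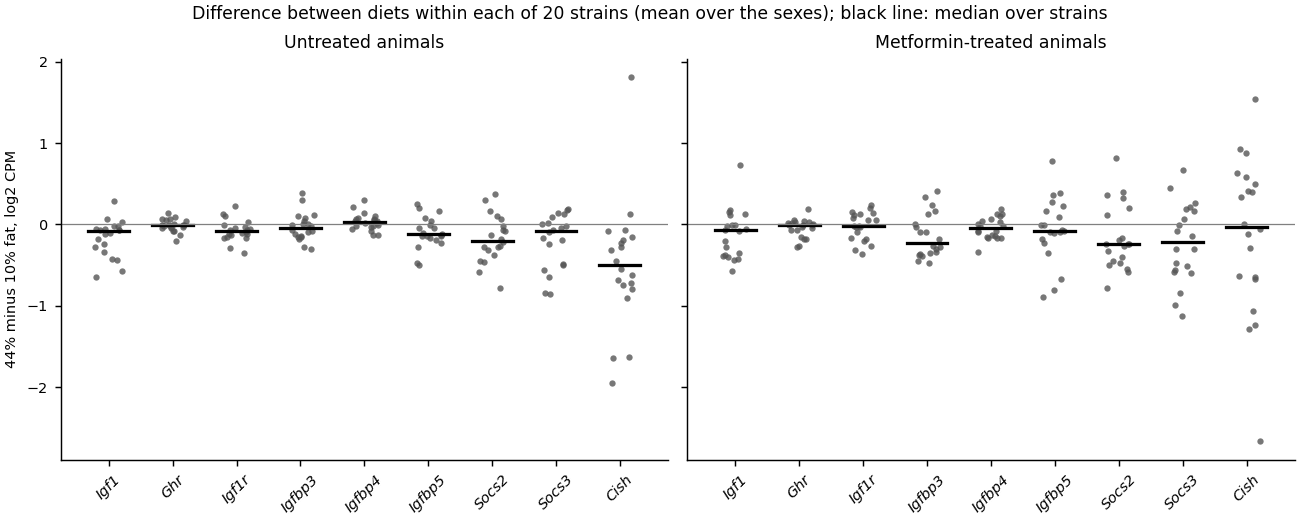
Difference in mean log2 CPM between 44% and 10% fat within each of the 20 strains, averaged over the sexes, for the 9 genes in untreated mice (left) and metformin-treated mice (right); each point is 1 strain and the black line is the median of the strains. In untreated mice Cish spreads from -1.95 to 1.81 with 18 of 20 points below 0, whereas Ghr lies between -0.20 and 0.14.

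In the upper identifier range alone (69 untreated mice) edgeR called 0 of 9 members for diet, where it called 2.2% of 16600 genes. At an unadjusted p under 0.05 it named 2134 genes, among them Igf1 (-0.26) and Igfbp5 (-0.30). Cish had -0.12 (adjusted p = 0.935). Igf1r was close to the threshold, and 4 alternatives called it lower along with the same 4 members: the lower range alone (adjusted p = 0.0201), limma voom (0.0404), variance-stabilised values (0.0412) and the fit without libraries closest to another strain (0.0422). In metformin-treated mice, where 12.1% of all genes were called and 6.79% lower, Igf1 (-0.17), Socs2 (-0.21) and Socs3 (-0.26) were called lower on 44% fat. Cish was not, with a difference of -0.22 (adjusted p = 0.46) and medians of 9.23 and 8.45 CPM.

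Of the other pathway genes, 10 of 29 were called for diet, 2 higher and 8 lower, where 20.3% of all genes were called and 10.1% called lower, with a median log2 difference of -0.03 beside 0.00 over all genes. The leading ones were Socs1 (-0.46, adjusted p = 0.00232), the IGFBP proteases Pappa2 (-0.36, adjusted p = 9.63e-05) and Pappa (-0.14, adjusted p = 0.0314), and the insulin and IGF1 receptor substrate Irs1 (-0.15, adjusted p = 0.00327). Of 10 genes that respond to STAT3 signalling, 2 were higher and 1 lower. Their summed medians were 268 and 273 CPM in males and 283 and 281 in females on 10% and 44% fat.

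Metformin was compared with no drug over all 703 libraries, with strain, sex, diet and identifier range in the model. This comparison shares its untreated mice with those above, and its 2 arms also differ in age. The arms differ in identifier range as well, with 90 treated and 69 untreated libraries in the upper range and 144 and 400 in the lower. Changes were small and fell on the ligand and the receptors. Of the 9 genes, 3 were called (edgeR, adjusted p under 0.05), where 19.4% of all genes were called. Median Igf1 was 15.9 CPM without drug (4.14 to 77.1, n = 469) and 15.2 with metformin (6.71 to 52.1, n = 234), a log2 difference of -0.14 (SE 0.04, adjusted p = 0.00439). Median Igf1r was 22.4 CPM (3.60 to 35.5) and 22.9 (11.7 to 38.2), a log2 difference of 0.07 (SE 0.02, adjusted p = 0.0117). Median Ghr was 170 CPM (104.9 to 228) and 177 (116.3 to 267), a log2 difference of 0.03 (SE 0.01, adjusted p = 0.0198). Each of these differences was well inside the spread between mice, and was in the called direction in 14 of 20 strains for Igf1, 14 for Igf1r and 16 for Ghr.

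The binding proteins and the inhibitors did not pass. Igfbp3 had a log2 difference of -0.05, Igfbp4 -0.04, Igfbp5 0.00, Socs2 0.02 (95% interval -0.09 to 0.12), Socs3 0.02 (-0.11 to 0.15) and Cish -0.01 (-0.24 to 0.21). The fibroblast list was called lower with metformin in 5 of 8 genes, where 1958 of 17740 genes were called lower, with summed levels of 387 to 1473 CPM in the 4 treated groups (medians 648 to 694) and 199 to 3955 in the 4 untreated groups (medians 719 to 843). Adipocyte genes were called lower in 4 of 8, endothelial genes in 3 of 6 (and 1 higher), smooth muscle genes in 2 of 4 and Schwann cell genes in 2 of 4. Muscle denervation and regeneration genes went the other way, called higher in 3 of 8, where 1479 of 17740 genes were called higher. Fast-muscle genes were mixed, with 2 of 10 called higher and 1 lower. The part of these lists in the Igf1 difference was not tested. By edgeR, 0 of the 9 genes were called in females alone, where 9.39% of all genes were, and 0 in the upper identifier range alone, where 0.00566% were. At an unadjusted p under 0.05 it named 3 members in females (Igf1, Igfbp3 and Socs3), of 3844 genes so named, and 0 members in the upper range, of 1160. Males alone, where 12.2% of all genes were called, called the same 3 genes as all mice. Ghr was not called without the libraries high in liver transcripts (adjusted p = 0.0988), nor was Igf1r in the lower range alone (0.0585).

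Socs3 was the member whose metformin difference varied between the sexes by test. Its median was 1.77 CPM in untreated and 2.10 in treated females on 10% fat, 1.74 and 1.84 in females on 44% fat, 2.12 and 1.97 in males on 10% fat, and 1.72 and 1.67 in males on 44% fat. The medians with metformin were thus the higher ones in females and the lower ones in males. The metformin by sex term was -0.57 on the log2 scale (SE 0.12, edgeR, adjusted p = 0.00331), and Socs3 was the 1 member called, where 3.12% of all genes were. It was -0.51 without the highest Socs3 library (adjusted p = 0.00611) and -0.38 by limma voom (adjusted p = 0.0508). Cish had a term of -0.47 that did not pass (adjusted p = 0.184).

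A metformin by strain term passed for Igf1 (edgeR, adjusted p = 0.0121) and Socs3 (adjusted p = 0.048), where 11.6% of all genes were called. Igf1 differences ran from -0.64 on the log2 scale in (CC011/UncJ x CC027/GeniUncJ)F1 to 0.43 in (CC051/TauUncJ x CC060/UncJ)F1. These strain differences were not adjusted for identifier range. All 12 treated mice of the latter strain were in the upper range, while its untreated mice were 12 in each range. The Igf1 term was not called in the lower range alone (adjusted p = 0.452) or by limma voom (0.0577), and Socs3 lost the call under each of 4 alternatives: limma voom (0.753), the lower range alone (0.351), and without liver-high libraries (0.0998) or its highest library (0.102). A metformin by diet term passed for 0 of 9 genes by edgeR and by limma voom, where edgeR called 0.0902% of all genes. At an unadjusted p under 0.05 edgeR named 1 member, Igfbp4 (-0.09), where 1609 of 17740 genes were so named.

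Of the other pathway genes, 11 of 29 were called for metformin, 3 higher and 8 lower, where 19.4% of all genes were called, with a median log2 difference of -0.03 beside 0.00 over all genes. Those with the largest differences were Prlr (-0.38, adjusted p = 0.00433), the receptor substrate Irs2 (-0.14, adjusted p = 0.031), the binding protein Igfbp7 (-0.10, adjusted p = 5.47e-05) and the ligand Igf2 (-0.08, adjusted p = 0.00701).

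Whether the members varied together from mouse to mouse was examined in residuals of log2 CPM after strain, sex, diet and identifier range, over 469 untreated libraries and 36 pairs. Age could not be removed, since no label gives it and untreated mice can be of either cohort. By a two-sided permutation test with 100000 resamples, 15 pairs passed after Benjamini-Hochberg adjustment over the 36. The pair with the largest r was Socs2 and Cish. For Socs2 and Cish, which sex moved in opposite directions, Pearson's r was 0.54 and Spearman's rho 0.52 (each p = 1e-05, the smallest the resamples can give, adjusted 3.6e-05). The r was 0.53 without the 2 libraries farthest from the Socs2 median, 0.55 and 0.46 in the lower and upper identifier ranges, and 0.59 in metformin-treated mice. For Socs3 and Cish r was 0.42 and rho 0.40 (adjusted permutation p = 3.6e-05), with 0.42 without the farthest 2 libraries and 0.41, 0.45 and 0.37 in the lower range, the upper range and treated mice. Socs2 and Socs3 had r of 0.24 and rho of 0.20, with 0.24 without 2 libraries, but -0.01 in the upper range.

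The ligand varied with both a binding protein and an inhibitor. Igf1 and Igfbp4 had r of 0.51 and rho of 0.37 (adjusted permutation p = 3.6e-05), with 0.46 without the farthest 2 libraries, 0.50 and 0.56 within the ranges and 0.31 in treated mice. The highest library of both genes was 1 male of (CC001/UncJ x CC042/GeniUncJ)F1 on 10% fat that was high in liver transcripts. Over all mice, libraries high in liver transcripts had a mean of 20.5 ± 9.42 CPM of Igf1 and 36.6 ± 10.6 of Igfbp4, and the others 16.4 ± 6.73 and 31.2 ± 6.35. Without the liver-high libraries r was 0.45 and rho 0.35 (n = 405, adjusted permutation p = 4.0e-05). Igf1 and Socs2 had r of 0.37 and rho of 0.37 (adjusted permutation p = 3.6e-05), with 0.37 without 2 libraries, 0.39 within the lower range but 0.01 within the upper one. Ghr, the receptor at the head of the pathway, had no correlation with Cish that passed, with r of -0.03 and rho of -0.02 (adjusted permutation p = 0.632). Ghr and Socs3 were among the pairs that passed, with a negative r that changed sign in the upper range. Igf1r and Igfbp4 had r of -0.26 and rho of -0.28 (adjusted permutation p = 3.6e-05), with -0.24 without 2 libraries and -0.23 and -0.42 within the ranges.

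**Figure D5:**
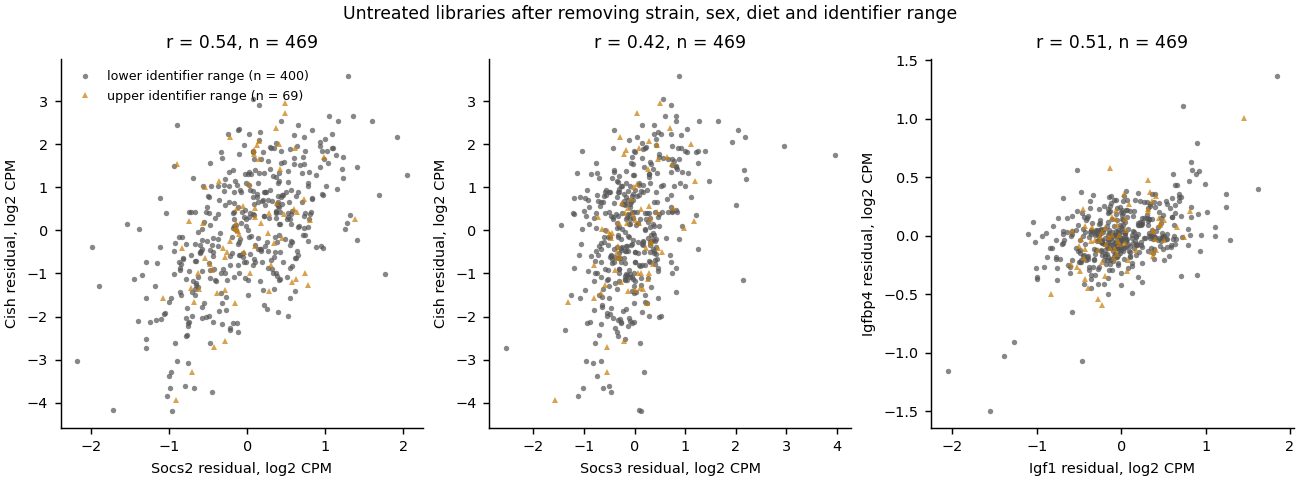
Residual log2 CPM of 3 pairs of members in the 469 untreated libraries after strain, sex, diet and identifier range; each point is 1 mouse, a grey circle in the lower range (n = 400) or an orange triangle in the upper (n = 69). Values rise together for Socs2 and Cish (r 0.54), Socs3 and Cish (0.42) and Igf1 and Igfbp4 (0.51), in both ranges.

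The genes most like each member were read from the same residuals over 10130 other genes with a mean log2 CPM above 1, as a description. The gene most like Socs2 was Cish, both over libraries and over the 20 strain means (r 0.88). Cish was closest to Chac1, a glutathione-degrading enzyme induced by amino acid stress (r 0.60), followed by Socs2, and Socs3 to the transcriptional regulator Cited2 (0.48) and then Cish. Igf1 was closest to Steap4 (0.58), Elovl5 (0.58) and the collagen gene Col3a1 (0.56). Igfbp4 was closest to the apolipoprotein Apoe (0.74) and complement factor B, Cfb (0.71). Igfbp5 was closest to Angptl2 (0.61), Ghr to the protein kinase A inhibitor Pkia (0.68), Igf1r to Naca (0.73) and Igfbp3 to Fam102b (0.34). All points share library depth and composition, so these values rank likeness only.

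The same residuals were compared with the summed level of 12 lists, 11 of cell type or muscle state markers and 1 of STAT3 response genes, and p-values were adjusted over all pairs of a member and a list. Igf1 varied with fibroblast markers (r 0.57, rho 0.54, adjusted permutation p = 4.2e-05, 0.55 without the farthest 2 libraries, 0.59 and 0.49 within the ranges), adipocyte markers (r 0.37, rho 0.30, adjusted permutation p = 4.2e-05, 0.37 without 2, 0.38 and 0.29 within the ranges), endothelial markers (r 0.30, rho 0.26, adjusted permutation p = 4.2e-05, 0.26 without 2, 0.35 and 0.13 within the ranges), liver markers (r 0.32, rho 0.26, adjusted permutation p = 4.2e-05, 0.27 without 2, 0.33 and 0.19 within the ranges) and macrophage markers (r 0.43, rho 0.37, adjusted permutation p = 4.2e-05, 0.42 without 2, 0.45 and 0.38 within the ranges). Igfbp4 varied most with macrophage markers (r 0.61, rho 0.48, adjusted permutation p = 4.2e-05, 0.55 without 2, 0.64 and 0.49 within the ranges). Next came fibroblast (r 0.48, rho 0.35), adipocyte (r 0.46, rho 0.44) and smooth muscle markers (r 0.37, rho 0.35), each with adjusted permutation p = 4.2e-05. Liver markers had a smaller r (r 0.30, rho 0.20, adjusted permutation p = 4.2e-05, 0.23 without 2, 0.29 and 0.39 within the ranges). Some pairs were negative, such as Igf1 with fast-muscle markers (r -0.26, rho -0.23, -0.33 and -0.04 within the ranges) and Ghr with STAT3 response genes (r -0.29, rho -0.42, -0.30 and -0.22), each with adjusted permutation p = 4.2e-05. Igf1r varied with endothelial markers (r 0.39, rho 0.26, adjusted permutation p = 4.2e-05, 0.38 without 2, 0.36 and 0.57 within the ranges). Among Cish, Socs2 and Socs3 the largest r in size with any of the 12 lists was 0.16, for Socs2 and Schwann cell markers (rho 0.14, adjusted permutation p = 0.00131, 0.15 without 2, 0.15 and 0.18 within the ranges).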

How the data were processed

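Gastrocnemius RNA from 703 mice was sequenced as polyadenylated RNA libraries. The authors aligned both read ends, as single reads, to a joint transcriptome of the 8 founder strains and apportioned them with EMASE in the GBRS package, and they removed transcripts with a read in too few of the samples. The deposited values used here are estimated counts (expected counts) per gene, given as whole numbers. A read shared by paralogs is divided by that method, so close family members are less certain. The authors also deposited log2-scale values after a variance-stabilising transformation (DESeq2, per the submitters' processing notes, which also name GRCm38), and these served only as an alternative. No column of values was left unmapped.

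Groups were taken from the labels. Counts were tested with edgeR 4.0.16 in R 4.3.3 (TMM scaling, filtering by expression within the 8 groups, quasi-likelihood F tests, Benjamini-Hochberg adjustment over all genes tested, threshold 0.05): strain, sex, diet and identifier range as terms for 16384 genes in 469 untreated libraries, and treatment added for 17740 genes in all 703. Interaction terms were added to these models. limma 3.58.1 and DESeq2 1.42.0 were alternatives. Levels are CPM with TMM scaling, and log2 CPM used a prior count of 2. Library totals were 27.4 to 96.1 M counts. No 2 libraries held identical values among 1404 pairs from 1 combination of labels. Simulated data were used to test the diet fit of untreated mice, the permutation test of a correlation and the variance shares. Other steps were not tested that way. The 9 members and all lists were chosen with earlier results of these data known. Every member was named in every comparison; of the other pathway genes, the 4 called ones with the largest absolute difference were named. Strains, lines and like genes were named from the ends of their orders, after their values were seen. The labels number each library as a single replicate of its combination, and p-values measure the spread between mice. Alternatives are given in the closing section.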

Additional observations from a re-analysis of the deposited data

Results flagged for a closer look

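Differences between groups passed a test of the difference itself in these 9 genes, each an interaction term in edgeR with adjustment over all genes. The diet difference of Socs3 varied between the 20 strains (adjusted p = 0.0315). The metformin difference of Socs3 varied between the sexes, with a term of -0.57 on the log2 scale, male minus female. The metformin differences of Igf1 (adjusted p = 0.0121) and Socs3 (adjusted p = 0.048) varied between strains. Socs3 was the least abundant member per kilobase, and 1 untreated male held 60.2 CPM of it. Without that library the diet by strain term had an adjusted p of 2.08e-04, the metformin by sex term was -0.51 with an adjusted p of 0.00611, and the metformin by strain term had 0.102. By limma voom the 4 adjusted p-values were 0.608, 0.0508, 0.0577 (Igf1) and 0.753 (Socs3).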

How the results depend on the processing

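Of 79 repeats of the counts of members called, 66 stayed within 1.5 times the count reported and 13 did not; of 691 repeats for single members and pairs, 600 kept direction and call, 50 lost the call, 4 gained it and 37 changed sign. The fits of diet in females alone, males alone and treated mice alone, of strain and sex in treated mice alone, and those without the highest Socs3 library were chosen after seeing the data. The cause of the changes was not tested, though single ranges and sexes hold fewer libraries. The upper range called 0 members for diet, 4 for sex, 0 for metformin and 5 of the 36 pairs. Diet called 2 members in each sex alone, and metformin called 0 in females. limma voom called 0 members for the diet by strain, metformin by sex and metformin by strain terms; the last also called 0 in the lower range, 1 without liver-high libraries and 1 without the highest Socs3 library. Of the values with a changed sign, none passed the test under its alternative. For diet these were Ghr in females (0.0042) and the lower range (0.0035), Igfbp4 in males (-0.018), treated mice (-0.063) and the upper range (-0.076), and Igf1r (0.034) and Igfbp3 (0.043) in the upper range. For metformin they were Cish by DESeq2 (0.0094), in females (0.28) and in the upper range (0.19); Igfbp4 in females (4.9e-04); Igfbp3 in males (0.0072) and the upper range (0.042); Igfbp5 in males (-0.024), with a term per strain and range (-0.0026), in the upper range (-0.060) and without sex-mismatched (-0.0082) or liver-high libraries (-0.0022); Socs2 in males (-0.023) and without a range term (-0.020); and Socs3 by limma voom (-0.0061), in males (-0.20), without a range term (-0.071), on variance-stabilised values (-0.0013) and without liver-high libraries (-0.022). Among interaction terms they were Igf1r for diet by sex in the lower range (0.0056) and without liver-high libraries (0.020); for metformin by diet, Igfbp5 (-0.022) and Socs2 (0.011) by limma voom, Socs2 in the lower range (0.017), and Igf1 (0.032) and Socs3 (-0.0054) without liver-high libraries; and Igfbp5 for metformin by sex without liver-high libraries (0.030). In treated mice the sex differences of Igfbp3 (0.029) and Socs3 (-0.15) changed sign from differences that had passed in untreated mice, as did r in the upper range for Ghr with Socs3 (0.070) and Socs2 with Socs3 (-0.011). No paired analysis was possible because the labels number every library as replicate 1. Depth limits Socs3 and Cish most, since both fell under 1 CPM in some libraries.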
